A study of Solanum lycopersicum with 8 samples.

Results

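GAD and GAD2 are tomato genes for glutamate decarboxylase, followed here in ripe fruit and leaf. They were chosen by their measured fruit and leaf levels, which earlier results of these data had placed on opposite sides of that contrast. The members are all non-control probes whose transcript accession belongs to either gene, which gave 9 of the 33750 non-control probes of the array. Of these, 3 probes belong to GAD, a locus with the RefSeq symbol LOC544313 and the synonyms GAD and LeGAD1, and 6 belong to GAD2. A further decarboxylase gene, GAD3, is described with the pathway. The lower-case symbol gad2, with 10 probes on this array, is another gene, which RefSeq also lists as GAME11, and it was not counted. The files and the reference table used here hold no sequences, so the probes are given by their identifiers.

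The study profiled red ripe whole fruit and mature whole leaf of the tomato accessions AV, TM, SK and RJ on one-colour Agilent arrays. Each accession gave 1 fruit array and 1 leaf array, which makes 4 fruit and 4 leaf samples, and no treatment is named in the labels. The design text gives Hyderabad as the source of AV, Kashmir for TM, Chatha for SK and Rajouri for RJ, and says that the lines differ in the pace of maturity and in fruit carotenoids. No label tells if plants were pooled, so the p-values measure only the spread between these arrays.

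Glutamate decarboxylase removes a carboxyl group from glutamate and so makes gamma-aminobutyric acid (GABA), a compound that plants accumulate under stress and that tomato fruit stores before ripening. GABA transaminases and succinate-semialdehyde dehydrogenase then return its carbon to the citrate cycle, a route called the GABA shunt. Most plant glutamate decarboxylases carry a calmodulin-binding end, through which calcium raises their activity.

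The share of probes with a signal well above background ran from 17.2% to 24.4% over the arrays, and no spot was saturated. All 8 fruit marker genes tested, among them 2A11 and Psy1, were higher in fruit, and all 5 leaf marker genes tested, among them CAB4 and PsbQ, were lower (limma, adjusted p under 0.05). Among all targets tested, 25.9% were called higher and 28.9% lower. Only CAB6A and PSBP had signal above background on all arrays of both tissues. The other markers had it on all arrays of their own tissue only, so their calls support no direction. Slide 1 held every leaf array and slides 2 and 3 the fruit arrays, so that slide and tissue cannot be told apart. Levels below are log2 processed signals minus the 75th percentile of the array, taken over probes well above background on all arrays. They can be compared between arrays for 1 probe or gene, but not between different probes. In whole organs, fewer cells that use a gene and less RNA per cell cannot be told apart.

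GAD was well above background in every ripe fruit and in no leaf. Its level was -1.77 in AV, -1.33 in TM, -1.59 in SK and -1.55 in RJ fruit, against -5.50, -5.33, -5.35 and -5.48 in the leaves of the same accessions. The groups did not overlap, and fruit was the higher tissue in each accession. GAD was chosen on this contrast, so neither is a finding. The mean was -1.56 ± 0.18 in fruit and -5.41 ± 0.09 in leaf (SD, n = 4 each), and the fruit minus leaf difference was 3.86 ± 0.13 over the 4 accessions (SD). These levels average the 2 probes of GAD that passed the filter, which asked that the 4 arrays of 1 tissue or the other all show a signal well above background. Taken singly, probes A_96_P000941 and A_96_P207804 had an SD of 0.23 and 0.42 for the difference, and of 0.37 and 0.26 in leaf. In TM leaf they lay at -4.62 and -6.03, neither well above background. The smaller SD of the gene in leaf and in the difference therefore measures no likeness between accessions.

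No GAD probe was well above background on any leaf array, so the fold is a bound. Set against the lowest signals that were well above background on the leaf arrays, GAD was at least 3.91-fold higher in fruit. Within accessions the bound was 3.1-fold in AV, 5.56-fold in TM, 3.13-fold in SK and 4.32-fold in RJ. The bound moves with the brightness of each leaf array, whose lowest signals well above background lay between -3.80 and -3.23.

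The 3 GAD probes differed in size. Probe A_96_P000941 lay at -0.90, -0.56, -0.84 and -0.81 in AV, TM, SK and RJ fruit, against -5.38, -4.62, -5.27 and -5.40 in leaf, which is at least 6.70-fold higher in fruit. Probe A_96_P207804 lay at -2.63, -2.09, -2.33 and -2.29 in fruit, against -5.62, -6.03, -5.43 and -5.56 in leaf, at least 2.28-fold higher. The remaining probe, A_96_P250732, was not well above background on any array and did not pass the filter. It lay between -4.79 and -4.26 in fruit and between -5.66 and -5.19 in leaf. With it in the average the bound fell to 1.94-fold.

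GAD2 showed the other side of the contrast, with signal in every leaf and none well above background in any fruit. Its level, the mean of its 6 probes, was -5.69 in AV, -5.87 in TM, -5.69 in SK and -5.74 in RJ fruit, against -2.13, -0.71, -2.21 and -0.47 in the leaves. The groups did not overlap, which is again no finding, as GAD2 was chosen on this contrast. The mean was -5.75 ± 0.08 in fruit and -1.38 ± 0.92 in leaf (SD, n = 4 each), a difference of -4.37 ± 0.98 over the 4 accessions (SD).

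All 6 GAD2 probes passed the filter through the leaf arrays, and none was above background on a fruit array. On the fruit arrays they lay between 0.01 and 0.36 above the lowest signal of any probe of the array, so the small spread of the fruit values is that of the floor. GAD2 was at least 4.59-fold lower in fruit. The bound was 2.64-fold in AV, 7.92-fold in TM, 2.49-fold in SK and 8.47-fold in RJ. By probe it ran from 3.07-fold for A_96_P218624 to 8.24-fold for A_96_P016916.

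**Figure D1:**
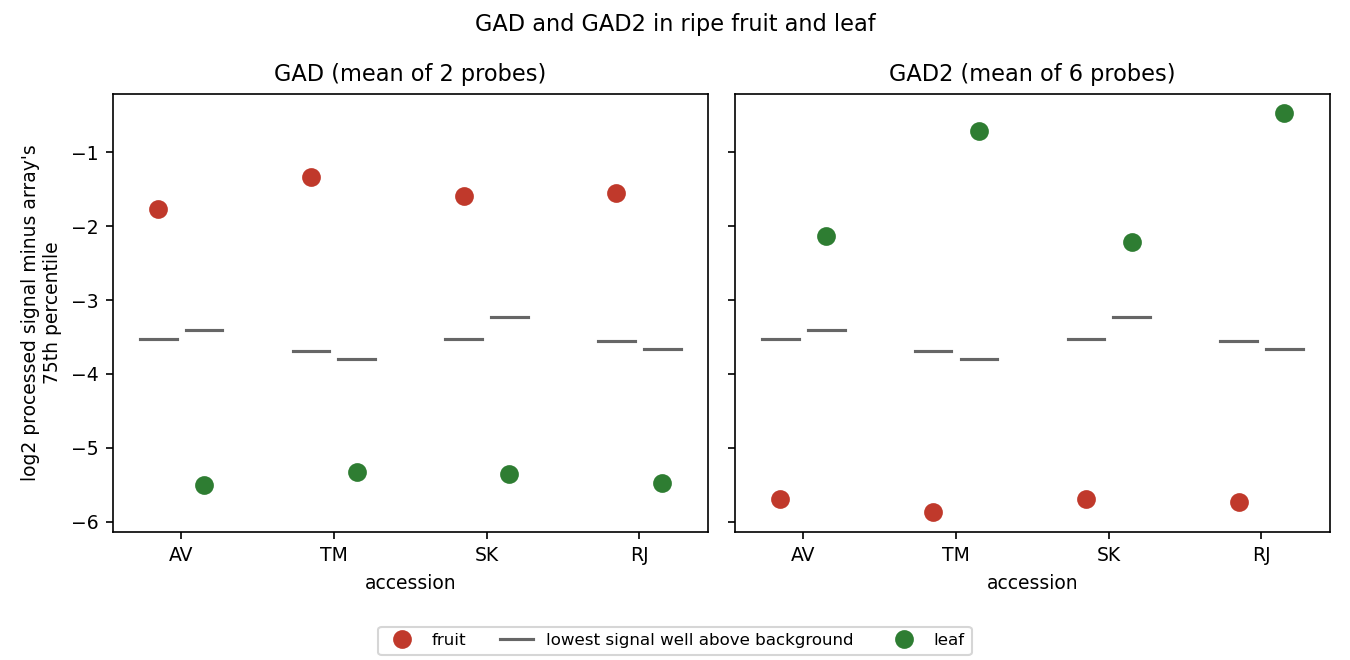
Levels of GAD and GAD2 (log2 processed signal minus the array's 75th percentile) on each fruit (red, left) and leaf (green, right) array of the 4 accessions, with a grey bar at the lowest signal that was well above background on that array. GAD lies above the bar in the 4 fruits only, and GAD2 in the 4 leaves only.

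**Figure D2:**
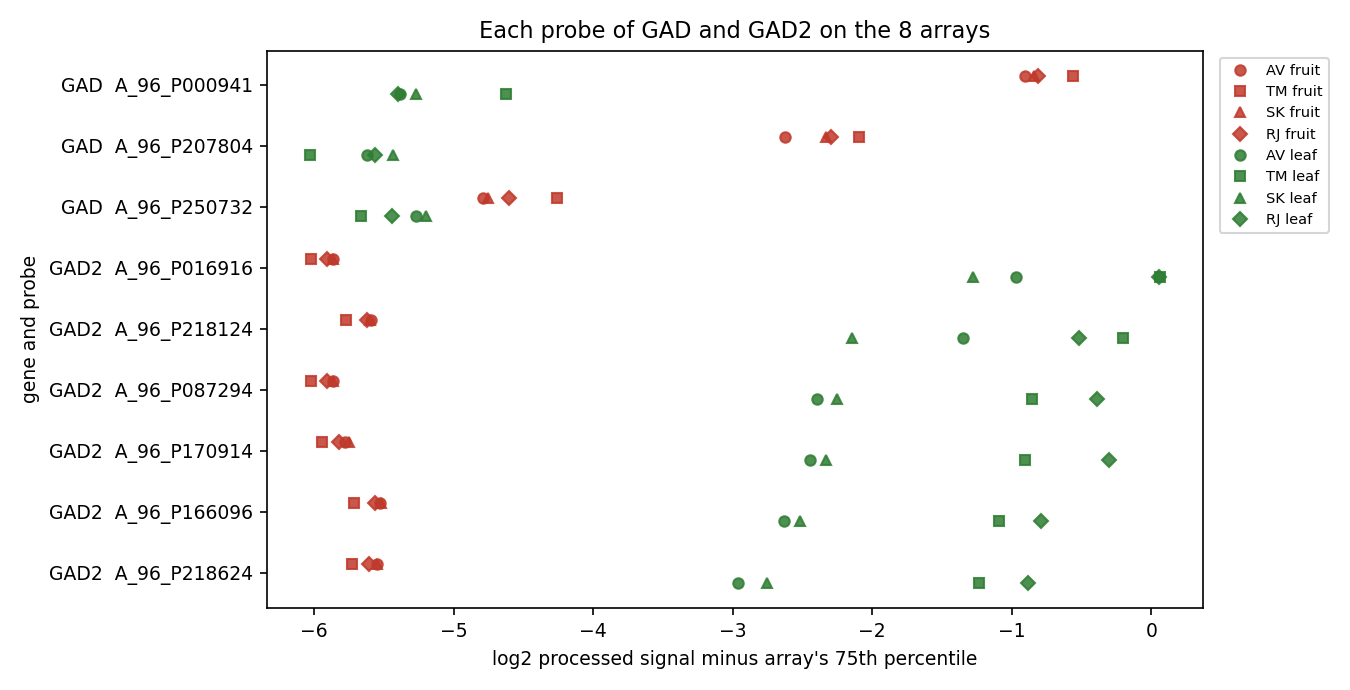
The 3 probes of GAD and the 6 probes of GAD2 (rows) on all 8 arrays, on the same log2 scale, with fruit in red above leaf in green and a symbol for each accession. Probe A_96_P250732 stays below -4 in both tissues, while the other GAD probes separate toward fruit and the GAD2 probes toward leaf.

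These genes were chosen for their fruit and leaf levels, so the contrast is given as a description and without a test. Among the 4723 genes and unnamed targets tested with limma, 54.8% were called in either direction, 25.9% higher and 28.9% lower in fruit, and nothing about the decarboxylases is read from these shares. Scaling to spike-in probes moved every target by -1.31, lowered the bound of GAD to 1.58-fold and raised that of GAD2 to 11.4-fold. This scaling rests on only 3 of the 10 spike-in probes, those above background on all arrays.

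The accessions differed little in fruit GAD and more in leaf GAD2. Fruit GAD spanned 0.44 from AV, the lowest, through SK and RJ to TM, the highest. The span was 0.26 without AV, 0.21 without TM and 0.20 under spike-in scaling. Set against the mean of the other 3 fruits, GAD was at -0.28 in AV, 0.31 in TM, -0.04 in SK and 0.01 in RJ. Both tested probes put TM highest and AV lowest, but they share the same arrays and are not replicates of an accession.

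Leaf GAD2 spanned 1.74, with SK and AV at the low end and TM and RJ at the high end. Against the mean of the other 3 leaves, GAD2 was at -1.0 in AV, 0.90 in TM, -1.11 in SK and 1.21 in RJ. The order of the neighbours SK and AV turned with the probe: AV leaf was lowest on 4 of the 6 probes and SK leaf on the other 2. RJ leaf was highest on 4 probes and TM leaf on 2.

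The split between the 2 lower and the 2 higher leaves was the same on all 6 probes. Before scaling, probe A_96_P087294 had processed signals of 1691 in AV, 4216 in TM, 2933 in SK and 4821 in RJ leaf. Probe A_96_P016916, the brightest, had 4529, 7984, 5763 and 6569 in the same leaves. The scanner software's own error was 10.1% to 19.2% of the signal for GAD2 probes on leaf arrays, which covers the spot and not the plant. The 75th percentile used for scaling was 13.12 in AV, 12.90 in TM, 13.77 in SK and 12.63 in RJ leaf on the log2 scale, so the brighter leaf arrays were those with lower GAD2. Under spike-in scaling leaf GAD2 lay at -0.67 in AV, 0.67 in TM, -0.24 in SK and 0.24 in RJ around the mean of the leaves. The part of array brightness in this spread was not tested.

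**Figure D3:**
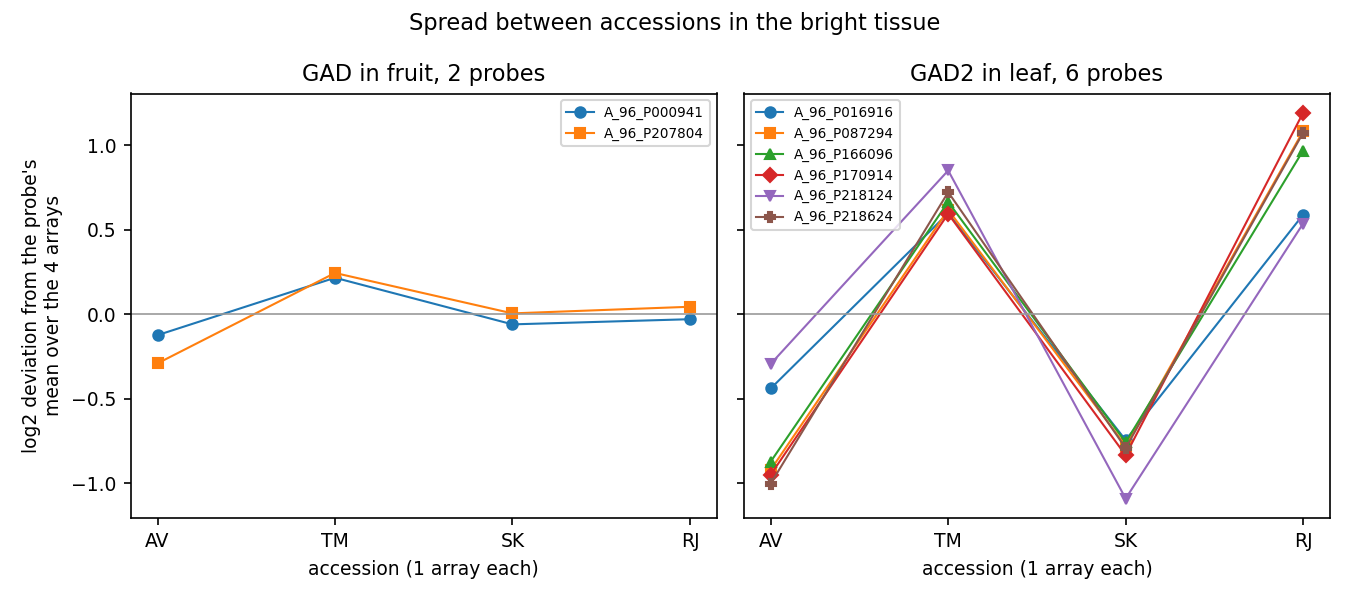
Deviation of each probe (log2) from its mean over the 4 arrays of the tissue where the gene was detected, by accession, for the 2 tested GAD probes in fruit (left) and the 6 GAD2 probes in leaf (right). Lines join the values of 1 probe. The fruit GAD values run from -0.29 to 0.24, and all GAD2 probes put TM and RJ leaf above AV and SK leaf.

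Whether accessions differed over both tissues together was tested with limma's F test of the accession terms, which does not use the fruit and leaf contrast. Neither gene passed, with an adjusted p = 0.9995 for both (unadjusted p = 0.868 for GAD and 0.3775 for GAD2). The test called 0 of the 4723 targets (0%), with 137 at an unadjusted p under 0.05, and 0 of 6648 single probes, with 200 at an unadjusted p under 0.05. Spike-in scaling called 48 targets, leaving out AV fruit 110 and leaving out AV leaf 7, and neither decarboxylase was among the calls of any of these. The largest pairwise differences for GAD2 were RJ minus SK at 0.85 ± 0.56 and RJ minus AV at 0.81 ± 0.56 (log2 ± SE, adjusted p = 0.9995 and 0.9987). The widest for GAD was TM minus AV at 0.31 ± 0.37 (adjusted p = 0.943). These fits average leaf with fruit, where GAD2 lay at the floor, and with 1 array per accession and tissue the leaves alone allow no test.

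Of 19 listed genes around glutamate and GABA on the array, GAD and GAD2 left out, 11 passed the filter: 1 was called higher in fruit, 6 lower, and 4 did not pass the test. Of the 5 that were above background on all arrays of both tissues, adc1 and CaM6 fell in fruit and SSADH, ADC and mMDH1 did not pass (limma, adjusted p under 0.05). GABA-TP1 and ICDH1 were above background on all fruit arrays but not on all leaf arrays, and GABA-TP1, above background on 3 of the 4 leaf arrays, was called higher. GABA-TP2, PRO2, mdh and gMDH were above background on all leaf arrays and on no fruit array, and all 4 were called lower. A gene above background in 1 tissue alone had to differ, and its p sets signal against values near the floor. The filter also admitted GABA-TP1 and ICDH1 through fruit, the tissue where they were higher. The adjusted p printed with GABA-TP1, ICDH1 and those 4 genes is therefore that of the fit and supports no direction. The fitted differences of the 11 genes had a median of -1.02, or -1.01 with those 4 at their bound, against -0.02 over all targets tested, and nothing is read from this median, which is that of PRO2. Among all targets, 1221 were called higher and 1365 lower, and 455 and 2766 under spike-in scaling.

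GAD3, the remaining decarboxylase gene, was not well above background on any array with either of its 2 probes. Its probes lay between 0.11 and 2.37 above the lowest signal of their array.

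The genes for enzymes that break GABA down had signal in different tissues. GABA-TP1, a GABA transaminase, lay at -1.03 in AV, -1.05 in TM, -1.89 in SK and -1.12 in RJ fruit, against -2.07, -3.06, -3.48 and -2.71 in leaf. Its fitted difference was 1.56 ± 0.29 (log2 ± SE, adjusted p = 0.00215), with fruit higher in 4 of 4 accessions and on both probes (1.14 and 1.97). The gene passed the filter through fruit alone, so this p supports no direction. Under spike-in scaling the difference was 0.25 and the call ended (adjusted p = 0.648).

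GABA-TP2, for which RefSeq also gives the name GAME12, of an aminotransferase in glycoalkaloid synthesis, was well above background in leaf alone. It lay at -5.12 in AV, -4.97 in TM, -5.20 in SK and -5.34 in RJ fruit, against -1.46, -0.62, -1.45 and -1.59 in leaf, and was at least 4.91-fold lower in fruit (adjusted p = 1.34e-05). This p is that of the fit and supports no direction. The fruit minus leaf differences of its 3 tested probes ran from -5.64 to -1.63. The probe with -1.63, A_96_P090544, lay at -3.39 in TM fruit. The lowest signal well above background on that array was -3.69, but the probe was not marked as such. GABA-TP3, a further transaminase gene, passed the filter with none of its 3 probes. SSADH, which oxidises the semialdehyde that the transaminases leave, had 0.52 ± 0.28 and did not pass (adjusted p = 0.144), although fruit was higher in 4 of 4 accessions.

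The supply and other uses of glutamate were thinly measured. The glutamate dehydrogenase gene gdh1 had 5 probes on the array and none passed. Of the proline synthesis genes, PRO1 did not pass the filter and PRO2 was at least 2.02-fold lower in fruit (adjusted p = 0.0157). PRO2 was above background in leaf alone, so its p supports no direction. Its call ended under normexp background correction (adjusted p = 0.226). Arginine decarboxylase, a start of polyamine synthesis, had 2 tested genes. ADC was at 0.30 ± 0.29 (adjusted p = 0.410), and adc1 fell by 2.47 ± 0.70 (adjusted p = 0.0174), lower in 3 of 4 accessions. In AV, adc1 was at 0.22 in fruit and -0.17 in leaf. The ornithine decarboxylase gene ODC did not pass the filter.

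Of 5 malate dehydrogenase genes on the list, which belong to several compartments of the cell, 3 were tested. The bound was 3.06-fold lower in fruit for mdh (adjusted p = 1.74e-05) and 6.0-fold lower for gMDH, the glyoxysomal one (adjusted p = 0.000126). Both were above background in leaf alone, so neither p supports a direction. The mitochondrial mMDH1 was at -0.30 ± 0.27 (adjusted p = 0.378). ICDH1, an isocitrate dehydrogenase gene above background on only 1 of the 4 leaf arrays, was at 0.79 ± 0.29 and missed the threshold (adjusted p = 0.0511). ICDH1 passed under several alternatives, among them the fit without the accession block (adjusted p = 0.0130), which made 2 listed genes higher in place of 1. With leaf values near the floor, these p-values support no direction.

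CaM6, a calmodulin gene, lay at -0.77 in AV, -1.58 in TM, -1.06 in SK and -1.38 in RJ fruit, against -0.96, 1.09, 0.37 and 0.78 in leaf. It fell by 1.52 ± 0.46 (adjusted p = 0.0245), lower in 3 of 4 accessions, and AV leaf stood below the other leaves. Both falls were larger without AV, where the difference was -3.42 for adc1 (adjusted p = 2.56e-05) and -2.09 for CaM6 (adjusted p = 0.000351). Leaving out TM gave -1.83 for adc1 and -1.13 for CaM6 (adjusted p = 0.0597 and 0.0982), leaving out SK -2.54 and -1.54 (0.0802 and 0.0923), and leaving out RJ -2.09 and -1.30 (0.0597 and 0.0917). Neither call held in these 3 fits, although without SK the differences were about as large as with all arrays. PRO2 was at -0.96 without TM and -0.92 without SK (adjusted p = 0.0694 and 0.0598).

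**Figure D4:**
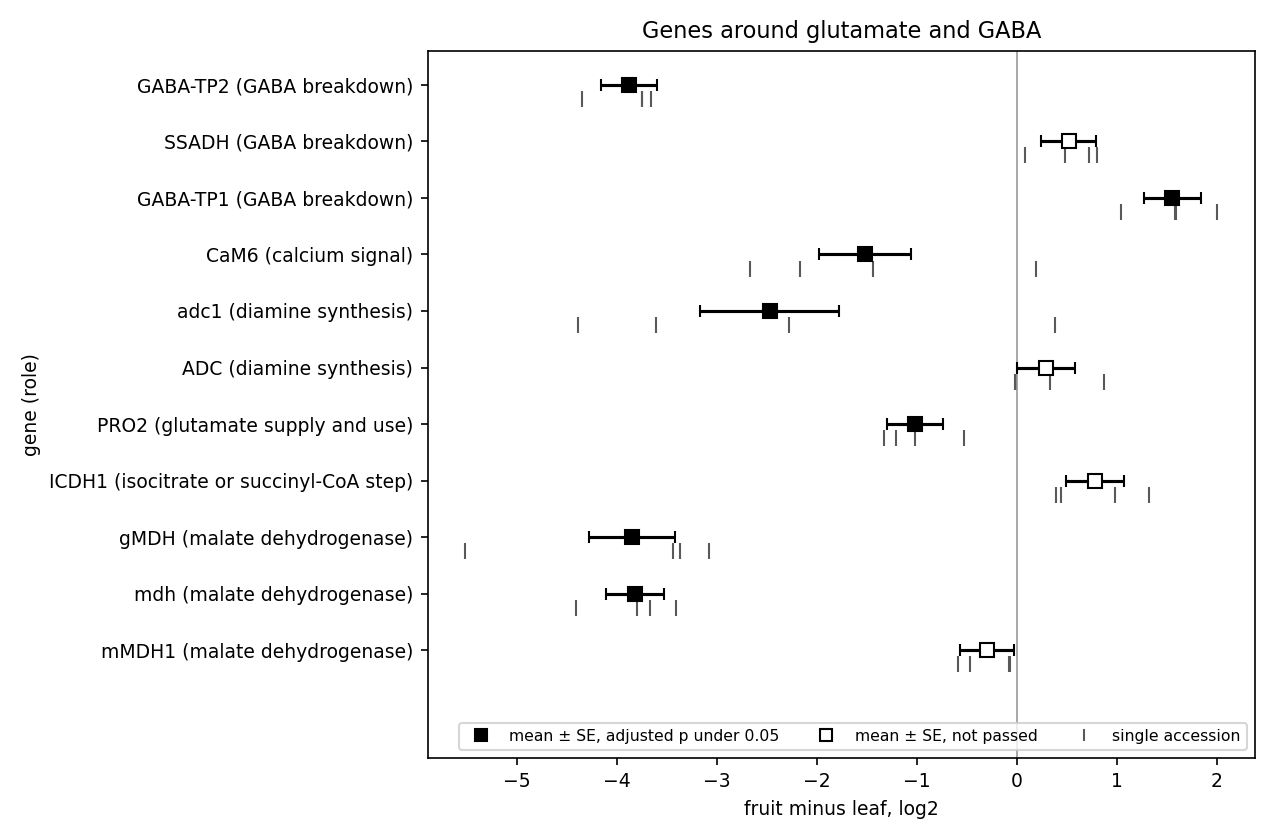
Fruit minus leaf difference (log2, x axis) of the 11 listed genes that passed the filter, as mean ± SE with filled squares for adjusted p under 0.05, and the 4 single accessions as ticks. GABA-TP1 is the filled square right of 0, and GABA-TP2, PRO2, adc1, mdh, gMDH and CaM6 lie left of it.

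Among 375 other named genes tested, those whose levels over the 8 arrays were most like GAD were the alcohol dehydrogenase gene ADH2, matriochka and the small heat shock gene HSP17-6 (Pearson r = 0.998, 0.996 and 0.995), of which ADH2 is also on the fruit marker list. Most like GAD2 were MLO1, the tonoplast aquaporin gene TIP2-2 and the expansin gene EXP5 (r = 0.99 for each). With tissue means removed, the nearest to GAD2 were TIP2-2 (r = 0.99), the remorin gene rem-1 (r = 0.98) and RFP1 (r = 0.97), and those to GAD were MAPKKKe (r = 0.89), the aquaporin gene PIP1-3 (r = 0.87) and the haemoglobin gene GLB2 (r = 0.84). TIP2-2 lay at -1.38 in AV, -0.78 in TM, -1.48 in SK and -0.56 in RJ leaf, and rem-1 at -1.76, -0.80, -1.75 and -0.39. RFP1 lay at -4.55, -4.18, -4.61 and -4.22 in the same leaves, below the lowest signal well above background on each array. On each array, RFP1 or GAD2 thus lay below that signal. GLB2 lay below it in AV and SK fruit, at -5.83 and -3.93. All points share 8 arrays and their scaling, and the first set shares the tissue difference. On 4 of the 8 arrays each decarboxylase was not above background, so that with tissue means removed 4 of its points carry no measured level.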

How the data were processed

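RNA of fruit and leaf was labelled with Cy3, per the labels. The authors deposited scanner files with intensity per spot which the file headers credit to Agilent Feature Extraction 10.7.3.1, and a table of log2 values whose centring per probe is not given in the sources used here. Once the median offset of each array was removed, its array differences agreed within 0.02 with those of log2 processed signals for 99.7% of values. The offsets themselves, which hold the scaling between arrays, were not compared. A further 247 columns of that table are empty and were not used.

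Outlier spots were dropped and the log2 values of a probe's spots averaged. From each array the 75th percentile was subtracted, over the 3085 probes that every array showed well above background. The filter kept 6657 probes, detected on the 4 arrays of a tissue. Probes were named through RefSeq accessions (SLM_r2.1, for names only): 2936 of 3132 matched. A gene is the mean of its kept probes, and a target with a missing value on an array was left out, as were single probes in the probe fit. Limma 3.58.1 in R 4.3.3 fitted tissue and accession, with 3 residual degrees of freedom and Benjamini-Hochberg adjustment over 4723 targets. Arrays were paired by accession label. Fruit and leaf deviations of an accession correlated at -0.17 to 0.03. A bound sets the brighter tissue's mean against, for each dim array, the array's lowest signal well above background or the gene's own, whichever is higher. The routines were run on simulated data with independent noise, where a shift of an accession was the same in both tissues. This does not cover a spread in leaf alone, such as that of GAD2.

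The members and lists were chosen with earlier results of these data known. Named are the members, all listed pathway genes, and the 3 named genes most like each member by either measure. Alternatives changed background correction, scaling, filter, probe choice, block, prior and arrays. The number of arrays limits the precision.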

Additional observations from a re-analysis of the deposited data

Results flagged for a closer look

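In 57 groups of 4 values, 7 held a value far from the other 3 by Dixon's criterion, where chance alone gives about 1 in 20 of separate groups. These groups are not separate, since differences repeat levels and probes make up gene values, so no excess is read from the count. Of the decarboxylases, GAD probe A_96_P000941 lay at -4.62 in TM leaf, against -5.40 to -5.27 in the other leaves, and was not well above background in any of them. GABA-TP1 lay at -1.89 in SK fruit, against -1.12 to -1.03 in the other fruits. GABA-TP2 lay at -0.62 in TM leaf, against -1.59 to -1.45, and its fruit minus leaf difference was -4.35 in TM, against -3.75 to -3.66. In AV fruit ADC lay at -0.35, and the other fruits had 0.57 to 0.67. gMDH lay at 0.53 in AV leaf, against -1.69 to -1.34, and its difference was -5.51 in AV, against -3.44 to -3.08. Neither GABA-TP2 nor gMDH was above background on any fruit array, so both differences repeat the leaf value and are no further observation.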

How the results depend on the processing

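Neither decarboxylase passed under any of 24 alternatives to the accession F test (adjusted p from 0.783 to 1 for GAD and from 0.541 to 1 for GAD2). Of these, 1 was no F test but the smallest adjusted p of the 6 pairwise accession contrasts. Normexp gave GAD2 an unadjusted p = 0.0078 in the F test. The fruit minus leaf difference of GAD was 3.17 under normexp, 4.12 with the percentile over all probes, 4.01 under quantile normalization, 2.55 under spike-in scaling, 3.99 with the deposited values, 2.84 with all its probes or with no filter, and 4.39 with its brightest probe. That of GAD2 was -2.99 under normexp, -5.68 under spike-in scaling and -5.38 with its brightest probe. TM and RJ leaf stood above AV and SK leaf in GAD2 in all 9 settings with all arrays that gave values of their own. These settings share the same arrays and are not separate observations.

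Pathway genes called higher in fruit numbered 2 under normexp, median scaling, quantile normalization, the deposited values, no filter, an intensity trend, no replicate block and slide as a random block, 3 with the percentile over all probes or with all probes of a gene, and 0 under spike-in scaling or among probes above background on all arrays, where 5 genes were left and 2 were lower. Leaving out an accession gave 3 to 6 lower and 1 higher. Spike-in scaling turned the sign of ADC (-1.01), ICDH1 (-0.52) and SSADH (-0.79). CaM6 was also lost with the percentile over all probes (adjusted p = 0.0514) and with no filter (0.102), and adc1 with all its probes (0.105) and with no filter (0.241). Neither decarboxylase could be compared among probes above background on all arrays, since no probe of either passed there. Among probes above background on all arrays, 321 of 2313 targets were higher and 388 lower (13.9% and 16.8%), and with no filter 1657 of 23675 were higher and 2388 lower (7.0% and 10.1%). The cause of these changes was not tested. Signal over background limits GAD in leaf and GAD2 in fruit to bounds.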
